A study of Mus musculus with 4 samples.

Results

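The 9 growth factor genes, Csf1, Il34, Csf2, Csf3, Kitl, Flt3l, Tslp, Il7 and Il15, were followed in fibro-adipogenic progenitors (FAPs) sorted by DPPIV. They were taken by symbol from a table of 24421 symbols, and each of the 9 was listed in it. FAPs are stromal cells of skeletal muscle, and Dpp4 is the gene of DPPIV, a peptidase on the cell surface. The cells came from 2 wild-type mice that had been given 3 weeks of CSF1R inhibition and then 3 days of a regular diet, and DPPIV- FAPs and DPPIV+ FAPs (PI- CD31- CD45- Sca1+) were sorted from each mouse. This gave 4 bulk RNA libraries with n = 2 mice per cell type. Every library came from a mouse that had received the inhibitor, so untreated FAPs are not part of any comparison here. In the labels the source is the tibialis anterior but the dissection covers both hindlimbs, and neither age nor sex is given.

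Stromal cells are among the sources of these cytokines, which act on blood cells. CSF1 and IL-34 are the ligands of CSF1R, the receptor that macrophages need for survival and division, and it is the receptor that the drug inhibits. GM-CSF (Csf2) and G-CSF (Csf3) act on myeloid cells, stem cell factor (Kitl) on mast cells and blood progenitors through KIT, and FLT3 ligand (Flt3l) on dendritic cells and their precursors. TSLP, IL-7 and IL-15 act on lymphocytes, and TSLP on dendritic cells as well.

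Of the 9 genes, 3 were called different between the cell types. Csf1, the most abundant of them, was 1.60-fold higher in DPPIV+ than in DPPIV- FAPs and Tslp was 1.45-fold higher, whereas Flt3l was at 0.719 of the DPPIV- level. Il34, Kitl and Il15 were detected and not called, and Il7, Csf2 and Csf3 were too low to be tested. A gene was tested if it reached 2 CPM (reads scaled to the size of the library) in at least 2 libraries, which 6 of the 9 genes and 11588 genes in all did, and it was called at an adjusted p under 0.05 in edgeR's quasi-likelihood F test (Benjamini-Hochberg adjustment) with the mouse as a block. Among all genes tested, 33.0% were called in that test, 15.9% as higher in DPPIV+ FAPs and 17.2% as lower, and the 3 calls in 6 genes are read against those shares, with nothing particular to the list drawn from them. The median log2 fold change of the 6 genes was 0.09, beside -0.002 over all genes tested. Only Csf1 was also called by DESeq2 and by the edgeR fit without the mouse as a block. DESeq2 called 16.6% of all genes tested and the fit without the block 18.3%. In the edgeR test against a 1.5-fold change, which called 9.42% of all genes, 0 of the 6 were called and 1 had an unadjusted p under 0.05. With 2 mice, the p-values rest on a spread borrowed from genes of similar abundance. In bulk RNA, fewer cells that make a transcript and less of it per cell cannot be told apart.

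The libraries held between 18240110 and 20879405 counted reads, so that 3 reads, the limit that a count of 0 allows, correspond to between 0.143 and 0.167 CPM. Dpp4 followed the sort, with 1879 and 776 reads in the DPPIV- libraries of mouse 1 and mouse 2 and 13106 and 10476 in the DPPIV+ libraries. Both libraries of mouse 1 stood apart in Xist, the non-coding RNA of the inactive X chromosome, with 153 and 166 reads against 1 and 3 in mouse 2. Summed over 4 genes of the Y chromosome, all libraries were alike at 125 to 135 CPM. The values of each mouse alone are therefore given beside the fitted values, and those of mouse 2 are the values without mouse 1. The FAP markers were very abundant in every library. They summed to 69770 and 67330 CPM in the DPPIV- libraries of mouse 1 and mouse 2 and to 57650 and 58060 CPM in the DPPIV+ libraries, and 4 of the 6 were called lower in DPPIV+ FAPs and 1 higher.

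**Figure D1:**
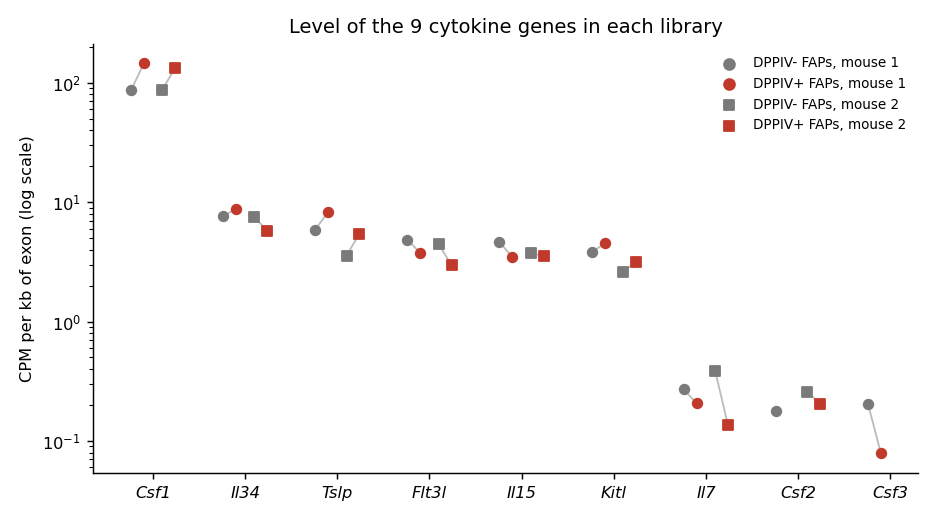
Level of the 9 genes in each library, in CPM per kb of exon on a log axis, with DPPIV- FAPs in grey, DPPIV+ FAPs in red, mouse 1 as circles, mouse 2 as squares and a line joining the cell types of a mouse. Libraries with 0 reads are not drawn. Csf1 lies at 86.3 to 145 CPM per kb, above every library of the other genes, which reach 8.79 at most.

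Set per length of exon, the levels fell into a clear order at the top and at the bottom only. Csf1 had a mean of 113 CPM per kb over the 4 libraries, above 97.4% of the genes tested. Il34 followed at 7.41 CPM per kb, then Tslp at 5.79, Flt3l at 4.01, Il15 at 3.85 and Kitl at 3.51, and the ranges of these neighbours over the libraries overlapped. Il7 at 0.250 CPM per kb, Csf2 at 0.160 and Csf3 at 0.0704 lay below all of them and overlapped each other. The plot of levels by library shows this gap between Csf1 and the rest.

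Csf1 (ENSMUSG00000014599.10) lies on chromosome 3 from 107741048 to 107760469 on the minus strand of GRCm38. In DPPIV- FAPs it had 456 CPM in mouse 1 and 463 CPM in mouse 2, and in DPPIV+ FAPs 767 and 702 CPM. The means were 459 ± 5.11 and 734 ± 45.7 CPM (SD, n = 2). Both DPPIV+ libraries were above both DPPIV- libraries, and the DPPIV- libraries of the 2 mice were nearly at the same level. The log2 fold change was 0.68 (SE 0.07, adjusted p = 4.11e-21, quasi-likelihood F test of edgeR), and 4.81% of the genes tested had a larger one. The ratio was 1.68 in mouse 1 (95% counting interval 1.64 to 1.73) and 1.52 in mouse 2 (1.48 to 1.56). These intervals cover counting error only. DESeq2 gave an adjusted p of 2.64e-12 for the same difference, and the edgeR test against a 1.5-fold change gave 0.269.

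Il34 lies on chromosome 8 from 110741829 to 110805924 on the minus strand. It had 14.9 CPM in mouse 1 and 14.6 CPM in mouse 2 in DPPIV- FAPs, and 17.2 and 11.3 CPM in DPPIV+ FAPs. The mice moved in opposite directions, so that the DPPIV+ values lay on either side of the DPPIV- values. The ratio of DPPIV+ to DPPIV- was 1.15 in mouse 1 (95% counting interval 0.984 to 1.36) and 0.773 in mouse 2 (0.643 to 0.928). The fitted log2 fold change was -0.06 (SE 0.13, adjusted p = 0.762, same edgeR test), and it was 0.02 after a correction for GC content and length. Whether the mice differ in this ratio could not be tested with 1 library of each cell type per mouse.

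Since both ligands bind the same receptor, their levels per length were set side by side. In the DPPIV- libraries, Csf1 made up 91.9% of the sum of both for mouse 1 and 92.2% for mouse 2. In DPPIV+ FAPs its part was 94.3% and 95.8%. Csf1 was thus the main CSF1R ligand transcript in each library, and its part was higher in DPPIV+ FAPs of both mice. The ratio of Csf1 to Il34 per kb was 11.3 and 11.7 in DPPIV- FAPs and 16.5 and 23.0 in DPPIV+ FAPs.

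Csf2 and Csf3, the myeloid colony-stimulating factors, were at or near the limit of detection. Csf2 had 3 and 4 reads in the DPPIV- libraries of mouse 1 and mouse 2 and 0 and 3 in the DPPIV+ libraries. Csf3 had 6 and 2 reads in the DPPIV- and DPPIV+ libraries of mouse 1 and 0 in both libraries of mouse 2. At these counts no difference between the cell types was detectable.

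Kitl, on chromosome 10 from 100015630 to 100100416 on the plus strand, had 22.4 CPM in DPPIV- and 26.7 CPM in DPPIV+ FAPs of mouse 1. In mouse 2 it had 15.5 and 18.5 CPM. DPPIV+ was above DPPIV- by nearly the same ratio in the 2 mice, 1.19 in each, although the levels of the cell types overlapped because mouse 1 was higher. The log2 fold change of 0.25 (SE 0.11) was not called, with an adjusted p of 0.0513 in edgeR's quasi-likelihood test, and without the filter on low counts it was called at 0.0459.

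Flt3l, on chromosome 7 from 45129788 to 45136432 on the minus strand, was lower in DPPIV+ FAPs. Its level was 18.8 CPM in DPPIV- and 14.6 CPM in DPPIV+ FAPs of mouse 1, and 17.3 and 11.5 CPM in those of mouse 2. Both DPPIV+ libraries lay below both DPPIV- libraries. The log2 fold change was -0.48 (SE 0.12, adjusted p = 0.000530, quasi-likelihood F test of edgeR), with -0.37 in mouse 1 and -0.59 in mouse 2. The call was lost in DESeq2 (adjusted p = 0.150) and in edgeR without the mouse as a block (adjusted p = 0.0656). Of its exon bases, 856 are shared with Gm45713 on the same strand, so reads there could belong to either symbol.

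**Figure D2:**
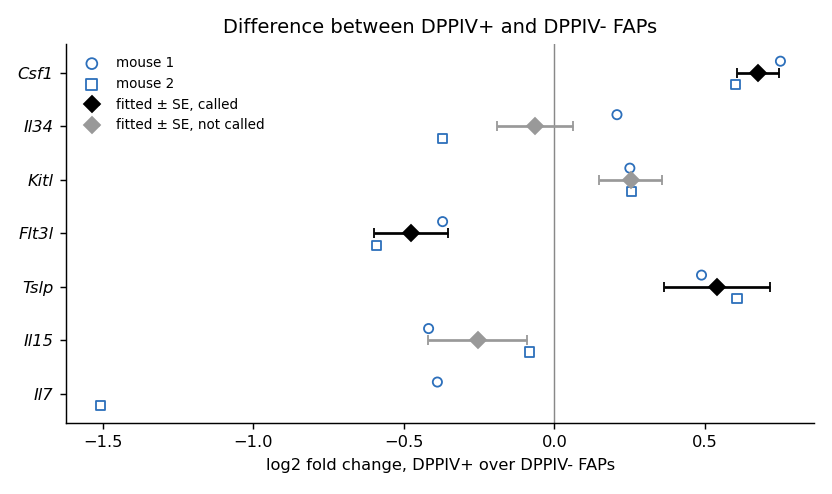
Log2 fold change of DPPIV+ over DPPIV- FAPs for the 6 genes tested, as the fitted value with its SE (diamonds, black where called and grey where not), and the log2 ratio in mouse 1 (circles) and mouse 2 (squares), also for Il7, which was not tested. Csf1 and Tslp lie above 0 and Flt3l below 0 in both mice, while the mice lie on opposite sides of 0 for Il34.

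Sequence upstream of the start was taken from RefSeq's promoter table (GRCm38.p6) for 4 of the 9 genes. It is shown for Csf1 and Flt3l, the called genes among them, whose differences run in opposite directions. Tslp, the other called gene, was left out of the selection and is not among the 4. Its upstream sequence was not examined, and its absence here does not mean that the promoter table lacks it. Each line gives the 250 bases before the annotated start, 5′ to 3′ on the gene's strand, for Csf1 chr3:107760470-107760719 and for Flt3l chr7:45136433-45136682, both minus strand. Capitals mark matches to the motifs searched.
Csf1: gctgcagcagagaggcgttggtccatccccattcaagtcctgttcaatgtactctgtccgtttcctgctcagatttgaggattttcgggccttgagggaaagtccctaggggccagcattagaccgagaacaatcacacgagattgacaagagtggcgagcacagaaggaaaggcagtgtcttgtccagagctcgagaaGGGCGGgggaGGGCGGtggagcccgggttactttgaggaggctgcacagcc
Flt3l: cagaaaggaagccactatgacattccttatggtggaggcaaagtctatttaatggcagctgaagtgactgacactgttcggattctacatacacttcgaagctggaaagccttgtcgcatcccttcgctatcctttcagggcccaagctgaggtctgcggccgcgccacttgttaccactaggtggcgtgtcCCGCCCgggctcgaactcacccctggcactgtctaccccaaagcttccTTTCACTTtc
The motifs searched were 7, on both strands, namely the Sp1 GC box GGGCGG, the AP-1 site TGANTCA, the cAMP response element TGACGTCA, the NF-kB site GGGANTTCC, the STAT GAS element TTCNNNGAA, the IRF core AANNGAAA and the TATA box TATAAA. The GC box occurs in the upstream windows of Csf1 (at -51 and -41 from the start) and Flt3l (at -58, on the reverse strand). It also occurs in those of Kitl and Csf2, that is in 4 of the 4 windows taken, which leave out Tslp. Of all 32851 windows, 32.7% hold it. Flt3l holds an IRF core at -10 on the reverse strand, a motif that 21.3% of windows hold, and Kitl a TATA box at -25, which 12.4% hold. The AP-1, cAMP response element, NF-kB and GAS letters were in none of the 4 windows. Positions are counted from RefSeq's starts, which for Kitl and Csf2 differ from the gene spans used elsewhere here. The Kitl window runs from 100015571 to 100015820 and overlaps its gene span, which begins at 100015630. The Csf2 window begins at 54249900, whereas its gene span on the minus strand ends at 54249667. A match is a description of the letters and not of binding.

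Tslp encodes thymic stromal lymphopoietin, an epithelial and stromal cytokine. It had 7.84 CPM in DPPIV- and 11.0 CPM in DPPIV+ FAPs of mouse 1, and 4.75 and 7.24 CPM in those of mouse 2. DPPIV+ was higher within each mouse, but the DPPIV+ library of mouse 2 was below the DPPIV- library of mouse 1, so the groups overlapped. The log2 fold change was 0.54 (SE 0.17, adjusted p = 0.00794, quasi-likelihood F test of edgeR), 0.49 in mouse 1 and 0.61 in mouse 2. The call was lost in DESeq2 (adjusted p = 0.286) and in edgeR without the block (adjusted p = 0.288).

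Il7, a survival factor of lymphocytes on chromosome 3 from 7569994 to 7613760, was below the filter, with 32 and 21 reads in DPPIV- and DPPIV+ FAPs of mouse 1 and 43 and 14 reads in those of mouse 2. DPPIV+ was the lower in each mouse, at ratios of 0.763 (95% counting interval 0.418 to 1.36) and 0.349 (0.177 to 0.651). Without the filter, edgeR's quasi-likelihood test gave a log2 fold change of -0.92 with an adjusted p of 0.0885. Il15, a cytokine of natural killer and memory T cells that is held on the cell surface by its receptor alpha chain, spans 82331632 to 82403222 of chromosome 8. It had 10.5 CPM in DPPIV- and 7.83 CPM in DPPIV+ FAPs of mouse 1. In mouse 2 it had 8.49 and 8.01 CPM. Its log2 fold change was -0.26 (SE 0.16, adjusted p = 0.251, same edgeR test) and the DPPIV+ values lay close together at the lower end of the range.

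The mice themselves differed in 2 of the 6 genes. Between mouse 2 and mouse 1, in the same edgeR model, Kitl was lower by a log2 fold change of -0.53 (SE 0.11, adjusted p = 2.95e-05) and Tslp by -0.66 (SE 0.18, adjusted p = 0.00407). Over all genes tested, 8.98% were called between the mice. DESeq2 called 0.949% of all genes and 0 of these 6, of which 2 had an unadjusted p under 0.05. Csf1 differed little between the mice, with a log2 fold change of -0.05 (SE 0.07, adjusted p = 0.749). For Kitl and Tslp, the fitted difference between mice was larger than that between cell types, which was not tested, whereas for Csf1 it was smaller.

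The other genes of the pathways were taken as 4 lists with 40 genes, of which 26 were tested, 8 were higher in DPPIV+ FAPs, 7 were lower and 11 were not called. These counts, and those of each list and of the markers, stand beside 15.9% higher and 17.2% lower among all genes tested, and nothing particular to a list is drawn from them. DESeq2 called 7 as higher and 3 as lower, and with the correction for GC content and length 10 were higher and 4 lower. Of the receptors, 8 of 14 were tested, 1 was higher and 4 were lower, and of those 4 the calls of Csf1r and Crlf2 were lost in DESeq2, without the mouse as a block and with the correction. Il15ra, the alpha chain that presents IL-15, had 23.3 and 22.2 CPM in the DPPIV- libraries and 34.5 and 34.4 CPM in the DPPIV+ libraries, which is 0.60 higher on the log2 scale (SE 0.09). It rose while its ligand did not pass the test. Sdc1, a proteoglycan that also binds IL-34, fell from 61.4 and 56.4 CPM to 21.4 and 25.3 CPM, a log2 fold change of -1.33 (SE 0.08). Csf2rb2, the beta chain of the mouse IL-3 receptor and a close relative of Csf2rb, had a log2 fold change of -1.45 (SE 0.22), -1.44 in mouse 1 and -1.47 in mouse 2, and reads of the 2 relatives could have been split by the counting.

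Crlf2, the TSLP receptor chain, was lower with a log2 fold change of -0.47 (SE 0.15, adjusted p = 0.00942 in edgeR's quasi-likelihood test), with -0.59 in mouse 1 and -0.33 in mouse 2. Its adjusted p was 0.339 in DESeq2, 0.109 in edgeR without the block and 0.121 in edgeR with the correction. Csf1r, the receptor of CSF1 and IL-34, had 29.1 and 19.3 CPM in DPPIV- and DPPIV+ FAPs of mouse 1 and 16.4 and 16.3 CPM in those of mouse 2. Its fitted log2 fold change of -0.32 (SE 0.11) thus came from mouse 1, and without that mouse the log2 ratio was -0.001. The adjusted p of 0.0102 in edgeR's blocked fit became 0.511 in DESeq2, 0.421 in edgeR without the block and 0.146 in edgeR with the correction. Kit, Flt3 and Il7r, the receptors of stem cell factor, FLT3 ligand and IL-7, had at most 7, 2 and 30 reads in any library. The summed leukocyte and macrophage markers, led by Lyz2, were 398 and 258 CPM in DPPIV- and DPPIV+ FAPs of mouse 1 and 242 and 223 CPM in those of mouse 2, and 6 of the 10 markers tested were lower in DPPIV+ FAPs. Csf1r is itself in that list. Lyz2 and C1qa, also among the 6, were likewise nearly level in mouse 2, at log2 ratios of -0.04 and -0.05. Adgre1, C1qb and Mrc1 were lower in both mice. The part of these markers in the Csf1r result was not tested.

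CSF1 and stem cell factor are made as membrane proteins that sheddases release. Of the 5 genes of this list, Adam10 and Adam17, which encode sheddases, and Timp3, which encodes an inhibitor of ADAM17, rose in DPPIV+ cells, by 0.36, 0.29 and 0.65 on the log2 scale (SE 0.07 each). Their log2 ratios were 0.36, 0.34 and 0.63 in mouse 1 and 0.37, 0.23 and 0.66 in mouse 2. A protease and its inhibitor were thus higher together. Rhbdf2, a partner of ADAM17 in its maturation, was lower at -1.17 (SE 0.24), -1.18 in mouse 1 and -1.15 in mouse 2. Its level was low, at 5.69 and 5.11 CPM in the DPPIV- libraries and 2.50 and 2.30 CPM in the DPPIV+ libraries. Rhbdf1, its relative, was far more abundant, at 157 to 178 CPM over the libraries. It was not called at a log2 fold change of 0.13 (SE 0.07, adjusted p = 0.118 in edgeR), but was called with the correction for GC content and length, at 0.27 (adjusted p = 0.00182).

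Of the 11 genes of the JAK-STAT relay and its feedback, 2 were higher, 2 lower and 7 not called, a share close to the 33.0% called among all genes tested. Jak1, a kinase of many cytokine receptors, was higher at a log2 fold change of 0.32 (SE 0.07), 0.35 in mouse 1 and 0.30 in mouse 2. Socs3, a feedback inhibitor, was higher at 0.35 (SE 0.07), 0.45 in mouse 1 and 0.26 in mouse 2, a call lost without the block (adjusted p = 0.163 in edgeR). Jak3, the kinase of the common gamma chain, was lower at -0.81 (SE 0.24), with -1.19 in mouse 1 and -0.52 in mouse 2, and its call was lost in DESeq2 (adjusted p = 0.218) and without the block (0.155). Cish, a target of STAT5, was lower at -0.62 (SE 0.23), with -0.49 in mouse 1 and -0.73 in mouse 2. That call was lost in DESeq2 (adjusted p = 0.431), without the block (0.208) and with the correction (0.0681). Stat5b, which was not called, was called with the correction, at 0.21 (adjusted p = 0.00856 in edgeR). Of 10 further cytokine genes, mostly blood growth factors and common gamma chain cytokines, 6 had 0 reads in every library. The 2 that were tested, Il33 and Thpo, were called higher. Il33, an alarmin of stromal cells that belongs to neither of these groups, had 144 and 138 CPM in the DPPIV- libraries. In the DPPIV+ libraries it had 226 and 216 CPM (log2 fold change 0.65, SE 0.07). Thpo, thrombopoietin, had 1.72 and 1.94 CPM in the DPPIV- libraries and 2.94 and 3.02 CPM in the DPPIV+ libraries. It passed the filter through the DPPIV+ libraries alone, so its direction is not independent of the filter. Its log2 fold change was 0.70 (SE 0.27, adjusted p = 0.0317 in edgeR's quasi-likelihood test), 0.77 in mouse 1 and 0.63 in mouse 2. This call was lost in DESeq2 (adjusted p = 0.543), without the block (0.107) and without the filter (0.0613), and Thpo was not tested under the filter that asks for 2 CPM in 3 libraries.

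**Figure D3:**
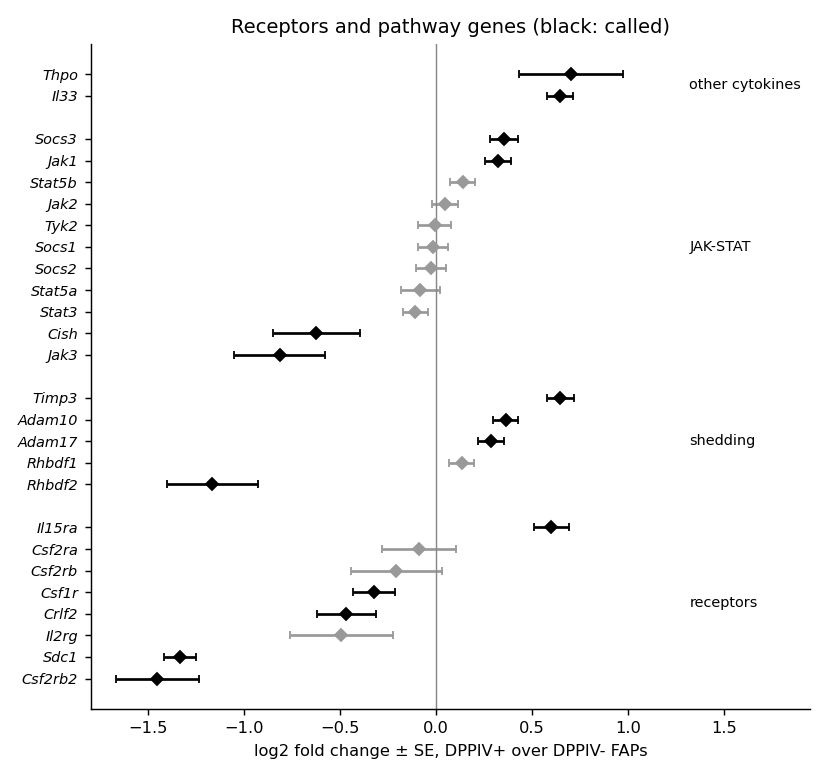
Fitted log2 fold change with its SE of the 26 pathway genes tested, grouped by list, black where called and grey where not. Receptors lie mostly below 0, from -1.45 for Csf2rb2 to 0.60 for Il15ra, and 3 of the 5 genes of shedding lie above 0 and are called.

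Some marker lists of other cell types moved with the sort as well. The tenocyte markers, led by Fmod, summed to 197 and 295 CPM in DPPIV- FAPs and 749 and 1549 CPM in DPPIV+ FAPs, and 4 of 4 were higher. Of these, Scx, at 0.860 and 1.74 CPM in DPPIV- FAPs, passed the filter through the DPPIV+ libraries alone. Its direction is therefore not independent of the filter. The mural markers summed to 121 and 123 CPM against 51.2 and 63.5 CPM, with 5 of 6 lower. Among them Kcnj8, at 1.67 and 1.865 CPM in DPPIV+ FAPs, passed the filter through the DPPIV- libraries alone, with the same limit. The satellite cell list summed to 88.7 and 90.1 CPM against 25.1 and 30.1 CPM, nearly all of it Vcam1. Pax7, Myf5, Myod1 and Chrna1 had at most 13 reads in any library, so no difference in satellite cells is read from this list. Endothelial markers summed to 65.4 and 37.0 CPM against 41.4 and 36.3 CPM, with 3 of 5 lower. Among these, the calls of Pecam1 and Kdr came from mouse 1, at log2 ratios of -0.80 and -0.95. In mouse 2 their log2 ratios were -0.0006 and 0.10. Cdh5 was lower in both mice, at -0.33 and -0.32. Glial markers summed to 18.9 to 28.1 CPM. Mast cell markers summed to at most 3.72 CPM and lymphocyte markers to at most 1.62 CPM, with Cd3d and Cd3g at 0 in every library. Any part of other cell types in the differences of Csf1, Flt3l and Tslp was not tested.

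**Figure D4:**
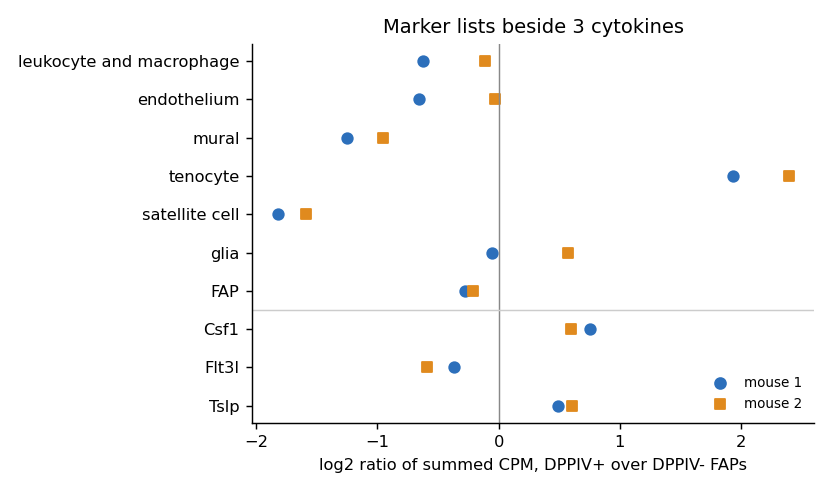
Log2 ratio of DPPIV+ over DPPIV- FAPs in mouse 1 (circles) and mouse 2 (squares), for the summed CPM of 7 marker lists (above the line) and for Csf1, Flt3l and Tslp (below it). Csf1 is at 0.75 in mouse 1 and 0.60 in mouse 2. The tenocyte list is above 0 as well, at 1.93 and 2.39, and the glia list is at -0.06 and 0.57. The other lists lie below 0 in both mice, with the leukocyte list at -0.63 and -0.12.

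Among the other genes tested, the 3 whose values over the 4 libraries lay closest to each gene were found by the distance of the log2 CPM values, centred on each gene's mean. For Csf1 these were Hoxa7, Smad1 and Il17ra, at distances of 0.0499, 0.0515 and 0.0534. For Flt3l they were Zfp810, Nrros and Cyp2u1, and for Tslp Tspyl5, 2210408F21Rik and Oas3. For Kitl they were Psmb9, Slfn2 and Hmox1, for Il34 Jade3, Slc25a27 and Agbl3, and for Il15 Zfp1, Ninj1 and Zfp719. With 4 libraries many genes have such a pattern, and this is a description only.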

How the data were processed

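RNA was sequenced from 4 libraries, DPPIV- and DPPIV+ FAPs of 2 mice, the labels tying 1 library of each cell type to each mouse number. The authors demultiplexed the reads with bcl2fastq2 2.20, aligned them with STAR to mm10 and counted them with RnaReadCounter; the deposited values are raw counts per symbol, without normalization. The annotation release and the use of strand in counting are not given in the sources used here, and the labels and the paper name different library kits.

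From these counts, each gene that reached 2 CPM in 2 or more libraries was tested with edgeR 4.0.16 in R 4.3.3: TMM normalization, a model with mouse and cell type, the quasi-likelihood F test (two-sided) and Benjamini-Hochberg adjustment over the genes tested, threshold 0.05. The estimate of the prior degrees of freedom was infinite, and each gene took the spread of the trend. The SE is the size of the log2 fold change over the square root of F. CPM are on TMM-scaled library sizes, with a prior count of 0.125 in log2 ratios of single genes per mouse. Counting intervals of ratios are at 95%. The same mice gave both cell types, so the mouse was a block; the mouse differences in the 2 cell types correlated at 0.415 across genes, which are not independent.

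Alternatives were DESeq2 1.42.0, no mouse block, RLE normalization, 2 other filters, a test against a 1.5-fold change, robust moderation and loess offsets (span 0.5) for GC content and length. Genes named were all 9 members, every called pathway gene, Dpp4, the 3 closest patterns and the most abundant markers (Lyz2, Fmod, Vcam1). Xist, the Y genes, Kit, Flt3, Il7r, Rhbdf1, Stat5b, Cd3d and Cd3g were chosen after their values were seen. So were the called endothelial markers and the called leukocyte markers other than Lyz2 and Csf1r. The members and lists were chosen with earlier results of these data known. The tests were run on simulated counts with changes set in some genes, and called changes had the right direction. Those counts were drawn with the spread of the trend fitted to these data, so they do not check that spread. Positions, GC content and length (for 11551 genes tested) are from GENCODE M21 on GRCm38. Trbc2 was not matched in the lymphocyte list.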

Additional observations from a re-analysis of the deposited data

How the results depend on the processing

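Csf1, Kitl, Flt3l, Tslp and Il15 kept the direction of their log2 fold change under all alternatives run, and Il34, which was not called, was at 0.0217 with the correction for GC content and length against -0.06. Of the 3 growth factor genes called (2 higher, 1 lower), DESeq2 called 1 (1 higher, 0 lower), and the fit without the replicate block likewise called 1 (1 higher, 0 lower), and with the pairing by mouse left out the calls of Flt3l and Tslp were lost. The test against a 1.5-fold change called 0 (0 higher, 0 lower), with 1 at an unadjusted p under 0.05. Of the 15 pathway genes called, DESeq2 called 10 (7 higher, 3 lower), the fit without the block called 9 in all (6 higher, 3 lower), the test against a 1.5-fold change called 3 in all (0 higher, 3 lower: Sdc1, Csf2rb2 and Rhbdf2), and the correction for GC content and length called 14 (10 higher, with Rhbdf1 and Stat5b added, and 4 lower). Between the mice, DESeq2 and the test against a 1.5-fold change called 0 of the 6 genes (0 lower), and the correction called 1 (1 lower, Kitl). The cause of these differences between settings was not tested. RLE normalization, robust moderation and the stricter filter moved no count of calls by over 1.5 times. The median log2 fold change of the growth factor genes was 0.09 (0.23 without replicate 2, 0.09 without replicate 1) and -0.24 without the filter, where 9 genes are counted in place of 6. With 1 mouse left out, 1 library per cell type remains, so these are values with no test. Depth limits Csf2, Csf3 and Il7, whose reads are few.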
